A study of Mus musculus with 6 samples.

Results

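Heat shock proteins and J-domain chaperones were described in retinal RNA of the prCAD mutant mouse. They were taken as every probe set whose single gene symbol in the platform annotation begins with Hspa, Hspb, Hsp90 or Dnaja, Dnajb or Dnajc and a number, together with Hspd1, Hspe1 and Hsph1. This gave 169 of 45037 probe sets and 70 of 18193 genes, and the brightest probe set on average over the 6 arrays stood for each gene. By the compartment of their products, 45 genes were assigned to the cytosol and nucleus, 14 to the endoplasmic reticulum (ER) and 9 to the mitochondrion. The remaining 2, Hspb11 (a subunit of the intraflagellar transport complex) and Dnajc22, were assigned to none of the 3. Hsp90ab1 and Dnajc19 were not analysed here as genes of their own.

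The study hybridised 3 single-colour Affymetrix arrays of prCAD -/- retina and 3 of wild type 129 retina, each with RNA pooled from the retinas of 3 mice about 4 weeks old. The mutant lacks photoreceptor cadherin, the product of Cdhr1, and is described by the submitters as a model of retinal degeneration. The sources used here name no strain for the mutants, so the mutation and the genetic background cannot be told apart in any difference below. The comparison addresses which retinal transcripts differ in this model, and values are log2 expression, on which a difference of 1 is a 2-fold change.

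Molecular chaperones bind unfolded stretches of proteins. In the cytosol, HSP70 proteins act with J-domain proteins, which deliver clients and stimulate ATP hydrolysis, and with HSP110 proteins, which release ADP, while HSP90 completes the folding of kinases and receptors and small heat shock proteins hold unfolded clients. The ER and the mitochondrion have HSP70 systems of their own, and the unfolded protein response raises the ER members when misfolded protein accumulates there. Photoreceptors make and traffic outer segment proteins in large amounts, and chaperone genes are often examined in retinal degenerations.

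The 6 arrays had medians between 4.74 and 4.79, and the Cdhr1 probe set averaged 4.16 ± 0.20 in mutant and 11.22 ± 0.21 in wild type arrays (SD, n = 3 each; limma, adjusted p = 2.18e-05). Rod genes marked the tissue as labelled: the summed linear signal of 5 rod markers was 28031 to 29868 in mutant and 27182 to 30535 in wild type arrays. By gene, 4 of the 5 rod markers had a negative difference (median -0.17), with Sag at 0.26 (SE 0.09), and so did 4 of 5 cone markers (median -0.22). Wild type replicate 3 stood apart. Its summed signal over 8 lens genes was 12117, against 21197 and 29746 in the other wild type arrays and 22430 to 33412 in mutant arrays, and over 8 pigment epithelium genes it was 410.1, against 902.2 and 1027 in the other wild type arrays and 1584 to 2151 in mutant arrays. In bulk RNA, a change in the number of cells of a type and a change in RNA per cell cannot be told apart.

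No chaperone gene passed the test. Of 70 genes, 0 had an adjusted p under 0.05 by limma (Benjamini-Hochberg, adjusted across the 45037 probe sets), where 0.0111% of all probe sets did. With the replicate number as a block it was again 0, also over all 169 chaperone probe sets, against 0.0333% of all probe sets. At an unadjusted p under 0.05 there was 1 gene with a positive difference, Hsph1, where 2.33% of all genes lay, and 1 with a negative one, Dnajc10, where 1.09% did. With the block these counts were 6 and 1, against 4.88% and 2.57% of all genes. The 2 groups did not overlap in 5 chaperone genes that were higher in all mutant arrays (Dnajb2, Dnajb13, Hspa8, Dnajb11 and Dnajc1), against 5.89% of genes, and in 1 that was lower (Dnajc10), against 2.88%. A positive difference in all 3 pairs of same-numbered arrays was found in 15 of 70 genes (20% of all genes), and a negative one in 10 (11.6%).

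The differences were small in each compartment. The median difference, mutant minus wild type, was 0.007 for the cytosol, 0.02 for the ER and -0.01 for the mitochondrion, against 0.02 over all genes. Of the 70 genes 60 differed by less than 0.2 in either direction, and only Hspb1 and Hspb6 by more than 0.5. Over all genes 15853 of 18193 differed by less than 0.2 and 233 by more than 0.5, so the sizes of the chaperone differences were near those of genes in general. The 95% confidence interval of the difference lay within 1 unit on the log2 scale, so within a 2-fold change either way, for 68 of 70 genes. It lay within 0.5, or 1.41-fold, for 55 of 70. The same held for 98.1% and 76.6% of all genes. These shares depend on the size of the differences as well as on the width of the intervals. These intervals are per gene and are not adjusted for the number of genes.

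**Figure D1:**
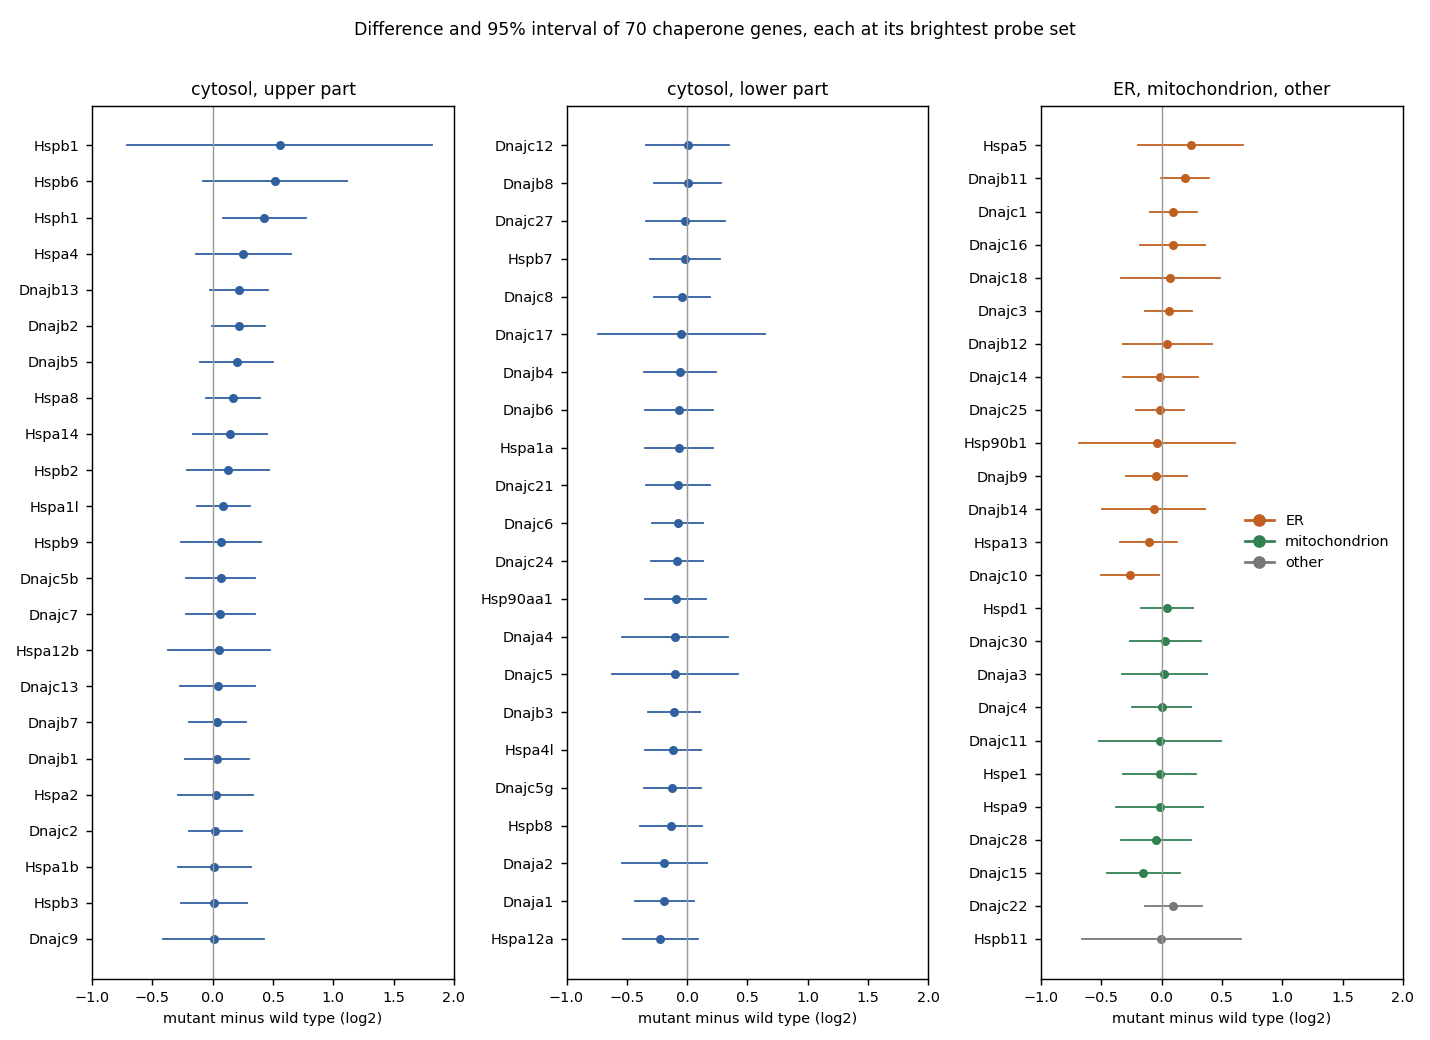
Difference between mutant and wild type retina (log2, x axis) for each of the 70 genes at its brightest probe set, with lines for the 95% confidence interval of the limma fit (3 arrays per group). Cytosolic genes fill the left and middle panels in order of their difference, and ER, mitochondrial and other genes the right panel. Most intervals cross 0 and are narrow, and that of Hspb1 is the widest.

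The stress-inducible HSP70 genes, the usual readout of the heat shock response, did not pass. Hspa1a read 6.24, 5.97 and 5.97 in mutant arrays, against 6.27, 6.01 and 6.10 in wild type arrays. The groups overlapped, and the difference was -0.07 (95% interval -0.35 to 0.21). Hspa1b read 6.96, 7.04 and 7.24 in mutant arrays, against 6.94, 6.98 and 7.27 in wild type arrays, a difference of 0.01 (-0.29 to 0.32). At the other probe sets of Hspa1b the differences were 0.22 and -0.03. The interval leaves room for an Hspa1b level at most 1.25-fold higher in mutant retina at the brightest probe set.

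Hspa1a and Hspa1b are neighbouring near-identical copies, and probes of one may also read the other. The brightest probe sets of Hspa1b and Hspa8 carry the suffix _x_at, by which the maker marks probes that can match other transcripts. The promoters of Hspa1a and Hspa1b are shown because they hold a short match to the sequence that heat shock factor binds. Binding itself was not measured. That factor binds inverted GAA repeats. The short elements searched for were GAANNTTC and TTCNNGAA, and the full element was GAANNTTC running on into TTCNNGAA with the TTC shared, so that each full match holds both short ones. Both strands were searched in the 250 bases before and 50 after each start site in the RefSeq table of GRCm38.p6. Promoters were found for 57 of 70 genes. The windows below have the matched letters in capitals and are written 5′ to 3′ on the strand of the gene.
Hspa1a, chr17:34972228-34972285, minus strand: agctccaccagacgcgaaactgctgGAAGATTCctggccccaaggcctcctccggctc
Hspa1b, chr17:34959310-34959367, minus strand: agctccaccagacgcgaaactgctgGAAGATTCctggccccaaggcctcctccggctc
The short element begins 104 bases before the start site in both, the 2 windows are the same, and 296 of the 300 promoter bases are identical between the genes.

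The constitutive HSP70, Hspa8, which also strips clathrin from vesicles, read 10.86, 10.81 and 10.97 in mutant arrays, against 10.78, 10.75 and 10.61 in wild type arrays. All mutant arrays lay above all wild type arrays, by a small margin, and the difference of 0.17 (SE 0.10) did not pass (limma, unadjusted p = 0.121). At its other probe sets Hspa8 differed by 0.20, 0.11 and 0.19. Without both replicate 3 arrays the difference at the brightest probe set was 0.07.

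Hsph1, an HSP110 exchange factor of cytosolic HSP70, had the smallest p among the cytosolic genes. It read 7.67, 7.30 and 7.60 in mutant arrays, against 7.31, 7.06 and 6.91 in wild type arrays. Mutant replicate 2 lay just below wild type replicate 1, so the groups overlapped. The difference was 0.43 (SE 0.15, 95% interval 0.08 to 0.78), with an unadjusted p of 0.0223 by limma that ranked 307 among all 18193 genes, and an adjusted p of 0.9999. The pairs gave 0.36, 0.23 and 0.69. At its dimmer probe set the difference was 0.17 (SE 0.17), with pairs of -0.12, -0.01 and 0.64, so only the third pair was positive there. With the block the unadjusted p at the brightest probe set was 0.00758 and the adjusted p 0.531.

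The 2 other HSP110 genes went opposite ways. At its brightest probe set Hspa4 differed by 0.26 (SE 0.17), and by 0.08, 0.10 and -0.13 at the others. For Hspa4l the brightest probe set gave -0.12 (SE 0.10), and its 4 dimmer probe sets differed by -0.22, -0.26, -0.36 and -0.42. All 5 were negative in all 3 pairs.

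The full heat shock element was present in 179 of 27025 gene promoters (0.662%) and in 4 of the 57 chaperone promoters, those of Hsph1, Dnajb6, Hspd1 and Hspe1. The short element GAANNTTC was present in 9.04% of all promoters and in 14 of 57 chaperone promoters, and TTCNNGAA in 9.60% and 6 of 57. The windows of Hsph1 and Dnajb6 are shown as the cytosolic genes with the full element. That of Hsph1 begins 15 bases after its start site and that of Dnajb6 46 bases before.
Hsph1, chr5:149636280-149636308, minus strand: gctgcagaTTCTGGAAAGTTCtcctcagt
Dnajb6, chr5:29735827-29735889, plus strand: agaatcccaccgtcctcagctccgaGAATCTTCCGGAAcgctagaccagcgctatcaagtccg
Hsph1 differed by 0.43, as given above, and Dnajb6, which keeps aggregation-prone proteins soluble, by -0.07 (SE 0.12). The 14 genes with GAANNTTC had a median difference of -0.02, with 6 positive and 8 negative, and the genes with the full element 0.01.

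Hsp90aa1, the inducible cytosolic HSP90, read 11.33, 11.13 and 11.05 in mutant arrays, against 11.26, 11.17 and 11.36 in wild type arrays. The difference was -0.10 (95% interval -0.35 to 0.16), and all 5 of its probe sets gave a negative value, between -0.33 and -0.02.

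Of the cytosolic J-domain genes, Dnajb1, the main heat-inducible partner of HSP70, read 7.71, 7.77 and 7.99 in mutant arrays, against 7.87, 7.66 and 7.83 in wild type arrays, a difference of 0.04 (-0.23 to 0.30). Dnaja1, a J-domain protein of the HSP70 and HSP90 cycle, read 8.55, 8.70 and 8.65 in mutant arrays, against 8.91, 8.90 and 8.67 in wild type arrays. Wild type replicate 3 lay between the mutant arrays, and the difference was -0.19 (SE 0.10). Without that array it was -0.27, with an unadjusted p of 0.0346 by limma.

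Dnajb2, which is enriched in neurons and delivers clients to the proteasome, read 8.27, 8.13 and 8.06 in mutant arrays, against 7.97, 7.96 and 7.89 in wild type arrays. The groups did not overlap, and the difference was 0.21 (SE 0.09). Dnajb13, known from the axoneme of sperm flagella and motile cilia, read 3.91, 4.04 and 3.90 in mutant arrays, against 3.61, 3.75 and 3.84 in wild type arrays, a difference of 0.22 (SE 0.10). These groups did not overlap either, but both lie below the median over all probe sets of 4.76, where background limits a difference.

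**Figure D2:**
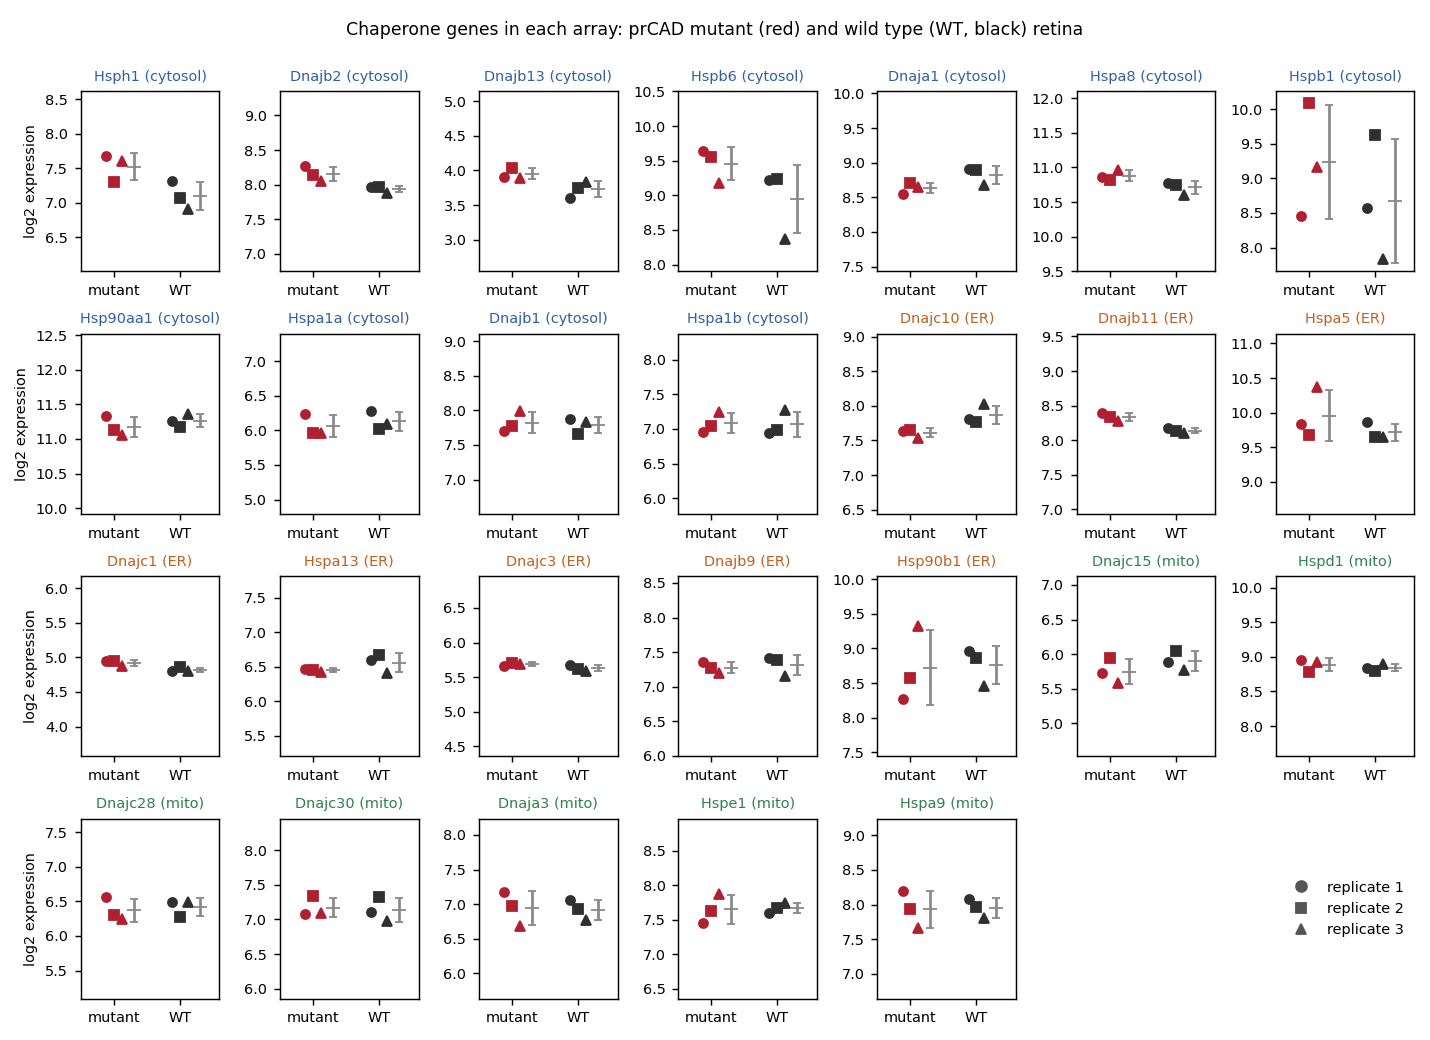
Log2 expression (y axis) of 26 chaperone genes in each array, prCAD mutant left in red and wild type (WT) right in black, with symbols for replicates 1 to 3 and grey bars for the mean ± SD (n = 3 each). Vertical scales span about the same range in each panel. In most genes the 2 groups overlap or their means lie within 0.3 of each other, while Hspb1 and Hsp90b1 spread widely within each group.

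At the brightest probe set of each gene, the 2 largest differences were those of the small heat shock genes Hspb1 and Hspb6, while 5 of the 7 genes of that class differed by less than 0.2. Hspb6, a small heat shock protein known from muscle, read 9.63, 9.56 and 9.18 in mutant arrays, against 9.22, 9.24 and 8.38 in wild type arrays. Mutant replicate 3 lay below wild type replicates 1 and 2, and each mutant array lay above the wild type array of its number, by 0.42, 0.32 and 0.81. The difference was 0.51 (SE 0.25, limma unadjusted p = 0.0802), and with the block the unadjusted p was 0.00384 and the adjusted p 0.453. Without wild type replicate 3 the difference was 0.23, and without any other single array it was 0.43 to 0.66.

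Hspb1, which encodes HSP25, a small heat shock protein that reactive glia are known to produce, read 8.45, 10.09 and 9.16 in mutant arrays, against 8.58, 9.62 and 7.83 in wild type arrays. The difference of 0.56 (95% interval -0.71 to 1.82) was smaller than the spread within either group, with an SD of 0.82 in mutant and 0.90 in wild type arrays. Leaving out single arrays gave 0.13 without wild type replicate 3 or mutant replicate 2, 0.95 without mutant replicate 1 and 1.03 without wild type replicate 2, and 0.51 to 0.59 without either remaining array. A 3.54-fold higher level remained within the interval, so Hspb1 is the gene on which these arrays say least. Its other probe set repeated the pattern, at 6.92, 8.98 and 7.82 in mutant arrays and 7.23, 8.47 and 6.43 in wild type arrays.

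The order of the arrays was partly the same for lens genes as for Hspb1. The summed signal of the lens genes was 22430, 31722 and 33412 in mutant arrays and 21197, 29746 and 12117 in wild type arrays, highest in the second and lowest in the third of the wild type arrays, as for Hspb1. In mutant arrays both were lowest in replicate 1, but the lens sum was highest in replicate 3 and Hspb1 in replicate 2. By gene, Bfsp1, Lim2, Cryba4 and Crygs were highest in mutant replicate 2, as Hspb1 was. Cryaa, Cryba1, Crybb2 and Mip were highest in mutant replicate 3. Cryab, the small heat shock protein alpha B crystallin of lens and glia, read 11.40, 11.92 and 12.12 in mutant arrays and 11.31, 11.98 and 10.27 in wild type arrays. All 8 lens markers had a positive difference, with a median of 0.66 and of 0.07, 0.15 and 1.61 within the pairs. Pigment epithelium markers had a median difference of 0.94 (8 of 8 positive), and 6 gliosis markers one of 1.68 (6 of 6 positive). Of all 18193 genes 10621 had a positive difference. The lists were chosen with earlier results of these data known, so these counts are a description. In the gliosis list Osmr, Cebpd, Edn2 and Socs3 ranked 5, 8, 13 and 23 among all genes by limma p. Of skeletal muscle markers, 7 of 8 had a positive difference (median 0.09), with a summed signal of 236.5 to 280.4 in mutant and 209.7 to 272.6 in wild type arrays. Of smooth muscle and vessel markers 5 of 7 were positive (median 0.20). Only 3 genes of each of these 2 lists had a mean level above the median over all probe sets of 4.76. The part of these cells in the values of Hspb1 and Hspb6 was not tested.

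**Figure D3:**
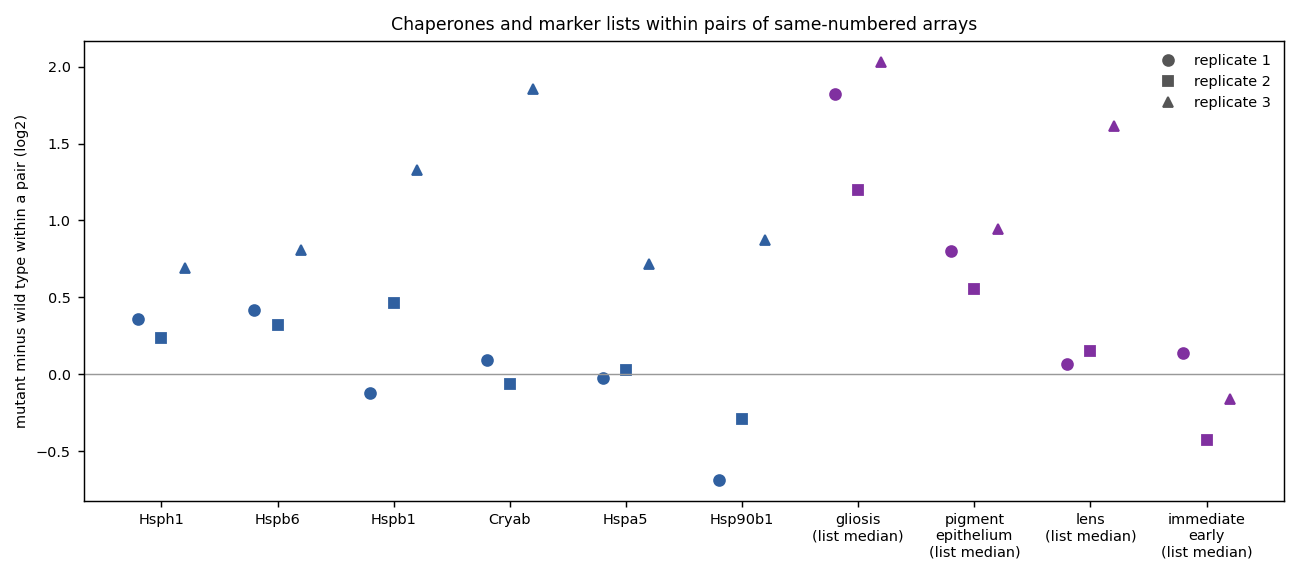
Difference between the mutant and the wild type array of the same number (log2, y axis) for 5 chaperone genes and Cryab (blue) and for the median of 4 marker lists (purple), with a symbol for each of the 3 pairs. The third pair is the highest for every gene and list shown except the immediate early list, and the gliosis list is above 1 in all 3 pairs.

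The other small heat shock genes differed less. Hspb2, Hspb3, Hspb7, Hspb8 and Hspb9 lay between -0.13 and 0.13 at their brightest probe sets. The promoters of Hspb1 and Hspb6 hold short heat shock elements and are shown because these genes gave the largest differences at the brightest probe set.
Hspb1, chr5:135887777-135887834, plus strand: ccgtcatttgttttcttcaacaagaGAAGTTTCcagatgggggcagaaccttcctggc
Hspb6, chr7:30553156-30553213, plus strand: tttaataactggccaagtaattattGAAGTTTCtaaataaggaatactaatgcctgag
Hspb1 has another short element 97 bases before its start site. The matches printed begin 117 bases before the start site in Hspb1 and 120 bases before it in Hspb6, and their letters are the same.

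In the ER, the genes that report the unfolded protein response did not pass. Hspa5, which encodes BiP, the HSP70 of the ER, read 9.84, 9.67 and 10.37 in mutant arrays, against 9.86, 9.64 and 9.65 in wild type arrays. Mutant replicate 3 alone lay apart, the difference was 0.24 (95% interval -0.20 to 0.68), without that array it was 0.04, and without mutant replicate 2 it was 0.38. At its other probe sets Hspa5 differed by 0.11 and 0.09. Hsp90b1, the HSP90 of the ER (GRP94), read 8.28, 8.57 and 9.32 in mutant arrays, against 8.96, 8.87 and 8.45 in wild type arrays, a difference of -0.04 (SE 0.27). The pairs ran from -0.69 to 0.87, while its dimmer probe set differed by 0.22 with pairs of 0.24, 0.19 and 0.22. The 2 probe sets therefore disagreed in the first 2 pairs.

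The promoters of these genes carry the ER stress response element, CCAAT and CCACG with 9 bases between them on either strand, and are shown for that reason. It was present in 37 of 27025 gene promoters (0.137%) and in 3 of the 12 ER chaperone promoters, those of Hspa5, Hsp90b1 and Dnajc3. A related element, ATTGG and CCACG with 1 base between them, was present in 12 promoters (0.0444%) and among chaperones in that of Dnajb11. These 2 motifs share the letters CCACG but no match was shared.
Hspa5, chr2:34772000-34772068, plus strand: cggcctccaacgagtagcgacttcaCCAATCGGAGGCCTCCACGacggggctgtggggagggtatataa
Hsp90b1, chr10:86705613-86705681, minus strand: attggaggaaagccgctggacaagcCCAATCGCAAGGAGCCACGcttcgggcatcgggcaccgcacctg
Hsp90b1, chr10:86705508-86705576, minus strand: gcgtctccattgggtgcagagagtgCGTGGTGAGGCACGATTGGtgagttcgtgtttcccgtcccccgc
Dnajc3, chr14:118937802-118937870, plus strand: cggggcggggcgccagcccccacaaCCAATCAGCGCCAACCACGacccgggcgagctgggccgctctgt
Dnajb11, chr16:22857844-22857870, plus strand: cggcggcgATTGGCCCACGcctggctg
The elements begin 65 bases before the start site in Hspa5, 212 and 107 bases before it in Hsp90b1, 105 bases before it in Dnajc3 and 7 bases after it in Dnajb11.

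Dnajb11 (ERdj3), a soluble cochaperone of BiP, read 8.39, 8.33 and 8.28 in mutant arrays, against 8.17, 8.14 and 8.11 in wild type arrays. All mutant arrays lay above all wild type arrays and the pairs gave 0.22, 0.19 and 0.18. The difference of 0.20 (SE 0.08, 95% interval -0.002 to 0.39) had an unadjusted p of 0.0514 by limma. Dnajc3 (P58IPK), which restrains the kinase PERK, differed by 0.06 (SE 0.08), and Dnajb9 (ERdj4), which takes BiP to the stress sensor IRE1, by -0.05 (SE 0.11). Dnajc1, a membrane J-domain protein near ribosomes, differed by 0.10 (SE 0.08), and Hspa13, an HSP70 of microsomes, by -0.11 (SE 0.10). With all probe sets of each gene averaged, Dnajc1 differed by -0.07 and Hspa13 by -0.24, so the sign of Dnajc1 depended on the probe set.

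Dnajc10 (ERdj5), a disulfide reductase that prepares misfolded proteins for export from the ER, had the smallest p of the ER genes. It read 7.64, 7.65 and 7.54 in mutant arrays, against 7.81, 7.77 and 8.02 in wild type arrays, and the groups did not overlap. The difference was -0.26 (SE 0.10, limma unadjusted p = 0.0381, adjusted p = 0.9999). At its 2 other probe sets it was -0.001 and -0.05, so the value rests on 1 probe set.

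At their brightest probe sets all 9 mitochondrial chaperone genes differed by less than 0.2 in either direction. Hspd1 (HSP60), the chaperonin of the matrix, read 8.96, 8.78 and 8.92 in mutant arrays, against 8.84, 8.79 and 8.89 in wild type arrays, a difference of 0.04 (95% interval -0.17 to 0.26). Its lid Hspe1 (HSP10) read 7.45, 7.62 and 7.88 in mutant arrays, against 7.59, 7.67 and 7.74 in wild type arrays, a difference of -0.02 (-0.32 to 0.28). At its dimmer probe set Hspe1 differed by -0.37 (SE 0.19). Hspa9 (mortalin), the HSP70 of the import motor, read 8.20, 7.93 and 7.67 in mutant arrays, against 8.09, 7.96 and 7.80 in wild type arrays, a difference of -0.02 (-0.38 to 0.35). In all 3 genes the groups overlapped.

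Hspd1 and Hspe1 are transcribed head to head, and the stretch between them is shown because it holds the full heat shock element in overlapping copies, read here on the strand of Hspe1, 89 bases before its start site.
Hspe1, chr1:55088034-55088101, plus strand: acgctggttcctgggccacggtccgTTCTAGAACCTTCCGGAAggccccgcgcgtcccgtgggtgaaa
On the strand of Hspd1 the same bases begin 144 bases before a start site.

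Of the mitochondrial J-domain genes, Dnaja3, the partner of mortalin, differed by 0.02 (SE 0.15) and Dnajc30 by 0.03 (SE 0.12). Dnajc15, of the import motor, differed by -0.15 (SE 0.13), with -0.17, -0.10 and -0.19 in the pairs, and Dnajc28 by -0.05 (SE 0.12). At its brightest probe set no mitochondrial gene reached an unadjusted p under 0.05 by limma, with or without the block. Of all 20 mitochondrial probe sets, 2 did so with the block and a negative difference, against 3.83% of all probe sets. With a positive difference there were 0, against 3.77%. With both its probe sets averaged, Dnajc28 differed by -0.17.

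Among all 169 chaperone probe sets, those with an unadjusted p under 0.05 were mostly lower in mutant arrays. There were 7 with a negative difference (1.34% of all probe sets) and 1 with a positive one (1.68%). With the replicate block there were 15 negative (3.83% of all) and 9 positive (3.77%). Probe sets of a gene share its transcript, and 0 of the 169 passed after adjustment, so these counts are a description.

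Dnajc5 held the 2 smallest p values. It encodes cysteine string protein alpha, a J-domain protein of synaptic vesicles that works with Hspa8 to maintain SNARE proteins. At 1 dimmer probe set it read 7.29, 7.31 and 7.43 in mutant arrays, against 7.96, 7.79 and 7.89 in wild type arrays. All mutant arrays lay well below all wild type arrays, and the difference was -0.54 (SE 0.09, limma unadjusted p = 6.60e-04, adjusted p = 0.550), rank 54 of 45037 probe sets. At the dimmest it read 5.50, 5.94 and 5.82 in mutant arrays, against 7.01, 6.38 and 6.61 in wild type arrays, a difference of -0.91 (SE 0.19, limma unadjusted p = 0.00181, adjusted p = 0.883). The 3 brighter probe sets differed by -0.10, -0.20 and -0.15, so the size depended on the probe set. At the brightest the sign depended on 1 array, with 0.13 without mutant replicate 3 and -0.25 to -0.02 without any other single array. The sources used here do not say where in the transcript each probe set lies. Averaged over all 5, Dnajc5 differed by -0.38 (limma unadjusted p = 0.00423, adjusted p = 0.744).

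All probe sets were negative in Dnajc5, Hspa4l and Hsp90aa1, which are 3 of the 7 chaperone genes with at least 5 probe sets. The same was true of 10% of all genes with at least 5. The choice of these genes followed from their values. Dnajc6 (auxilin), the J-domain protein with which Hspa8 uncoats clathrin vesicles, differed by -0.44 (SE 0.17) at 1 dimmer probe set but by -0.08 (SE 0.09) at its brightest. A dim Dnajc18 probe set differed by -0.41 (SE 0.12), against 0.07 (SE 0.18) at its brightest.

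**Figure D4:**
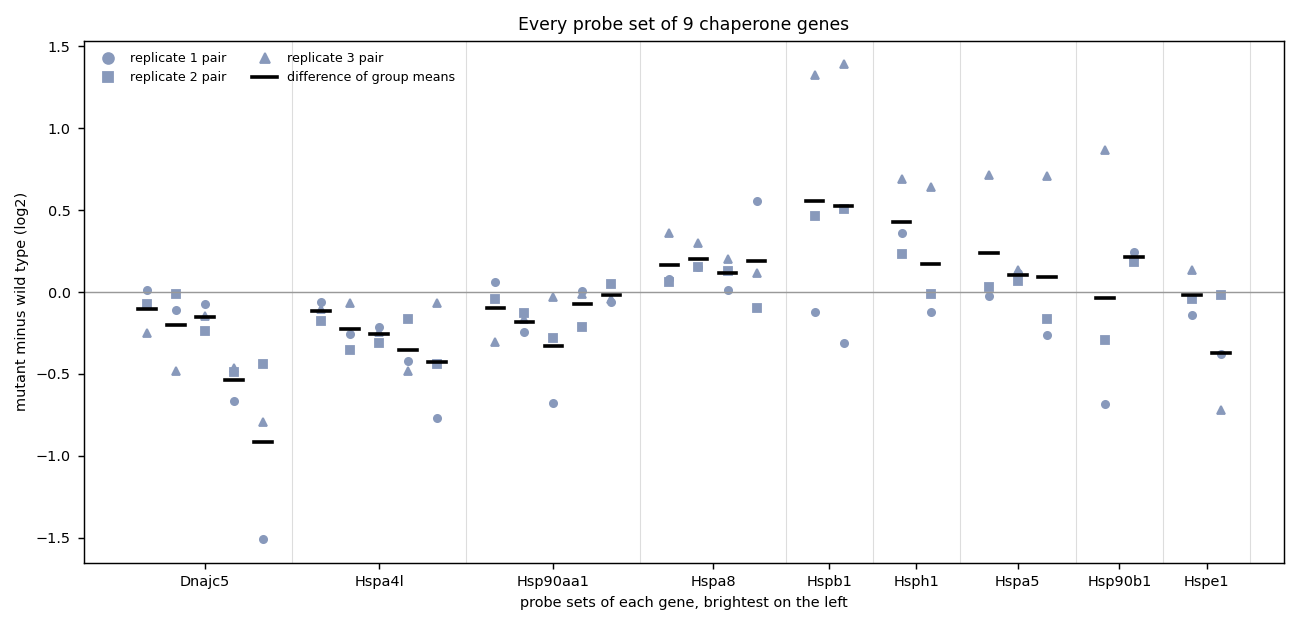
Difference between mutant and wild type (log2, y axis) at every probe set of 9 chaperone genes, ordered from the brightest on the left within each gene. Symbols mark the 3 pairs of same-numbered arrays and black bars the difference of group means, which for Dnajc5 runs from -0.10 at the brightest to -0.91 at the dimmest probe set.

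The partners of the chaperones are given from lists chosen with earlier results of these data known. They stand beside 10621 of 18193 genes with a positive difference. Of 16 measured cofactors of HSP70 and HSP90, 0 passed over all probe sets, with a median difference of 0.11 and 11 positive. Bag3, an exchange factor that is itself induced by heat shock, differed by 0.27 (SE 0.11), Hspbp1, another exchange factor, by 0.26 (SE 0.17), and Cryab by 0.63 (SE 0.42). Of 3 measured genes for heat shock factors and their regulator 0 passed: Hsf2 differed by 0.04 (SE 0.15), Hsf4 by 0.10 (SE 0.13) and the regulator Hsbp1 by -0.08 (SE 0.17). Hsf1 was also on the list but was not measured, and the mean level of Hsf2, 3.65, lies below the same median. The 8 subunits of the cytosolic chaperonin had a median difference of 0.02, 0 passed, and Cct7 differed by 0.18 (SE 0.14), Cct3 by 0.14 (SE 0.14) and Tcp1 by 0.12 (SE 0.14).

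Of 23 genes of the ER stress response 19 had a positive difference and 0 passed, with a median of 0.09, and 0.07, 0.06 and 0.20 within the pairs. Pdia3, a disulfide isomerase, read 8.72, 8.63 and 8.97 in mutant arrays, against 8.56, 8.42 and 8.28 in wild type arrays. These groups did not overlap, as in 5.89% of all genes with mutant arrays higher, and the difference was 0.35 (SE 0.12, limma unadjusted p = 0.0255). Pdia6, another isomerase, differed by 0.21 (SE 0.09) and Creld2, an ER protein induced by stress, by 0.20 (SE 0.09). Mutant arrays also lay above all wild type arrays in Pdia6, Creld2, Hyou1, Calr, Syvn1 and P4hb. In the rest of this list the groups overlapped. Ddit3 (CHOP), the transcription factor of prolonged ER stress, differed by 0.03 (SE 0.14), and was chosen after its value was seen. Of 13 mitochondrial partners and proteases 10 had a negative difference, with a median of -0.02, and 0 passed. Grpel2, an exchange factor of mortalin, differed by -0.21 (SE 0.12), Timm44, the anchor of the import motor, by -0.34 (SE 0.24), and the protease gene Yme1l1 by -0.21 (SE 0.17).

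Among 7 immediate early genes, which rise when tissue is handled, Junb and Atf3 differed by 0.85 and 0.56 with unadjusted p values of 0.00143 and 0.00335 by limma, and neither passed. The other 5 had negative differences, and 0 of them reached an unadjusted p under 0.05 by limma. The summed signal of the 7 was 978.8 to 1805 in mutant and 1051 to 1919 in wild type arrays. Smooth muscle and vessel markers summed to 353.7 to 407.3 in mutant and 282.2 to 373.5 in wild type arrays, and blood markers to 74.68 to 79.94 in mutant and 66.02 to 79.67 in wild type arrays. Ganglion cell markers summed to 1383 to 1719 in mutant and 1607 to 2245 in wild type arrays, with 5 of 5 negative, and amacrine markers to 2254 to 2419 in mutant and 2108 to 2610 in wild type arrays. Their part in the lower values of neuronal chaperone probe sets, those of Dnajc5 and Dnajc6, was not tested.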

How the data were processed

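The deposited values are log2 expression. The submitters' processing notes name RMA, without a version, as what the authors used. That method subtracts background, gives all arrays the same distribution and combines probes into probe sets, so a shift of all transcripts is removed before any test. Of 45101 deposited probe sets 64 manufacturer controls were left out. The platform annotation gives 34945 probe sets 1 symbol, 932 several and 9160 none. The sources used here name no genome build, and RefSeq promoters of GRCm38.p6 (reference strain) served for sequence only.

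Groups followed the sample titles. limma 3.58.1 in R 4.3.3 (lmFit, eBayes) was fitted on group over all 45037 probe sets with Benjamini-Hochberg adjustment and a threshold of 0.05, and its steps were tested on simulated data. SEs are those of this fit. Nothing says whether pools shared litters, so p-values measure the spread between these pools. Deviations from group means correlated between same-numbered arrays at 0.477, 0.469 and 0.563, all above 0.1 and the highest value for each array. Mutant replicate 1 with wild type replicate 2 (0.175) and mutant replicate 2 with wild type replicate 1 (0.125) also passed 0.1. That threshold alone therefore does not single out the numbering, and deviations from a mean of 3 arrays constrain one another. Matching arrays by number, in the block and the pairs, was a choice made from these values and not from labels.

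Chaperones, compartments and lists were chosen with earlier results of these data known. Genes with values for each array are those past the threshold, of which there were 0, the 5 of smallest p in each compartment and a list of core genes; 3 of smallest p were named from each partner list. Further names were chosen after their values were seen. Figures were drawn with matplotlib 3.10.9.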

Additional observations from a re-analysis of the deposited data

How the results depend on the processing

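Under all 17 alternatives 0 chaperone genes passed, and the lowest adjusted p was 0.223, for Hspb6 with the replicate block and array weights. The probe sets that passed over the whole table numbered 5, or 15 with the replicate block, 25 with array weights, 16 without both replicate 3 arrays and 2 to 9 without single arrays. Combined settings, chosen after seeing the data, gave 76 (replicate block with array weights) and 50 (replicate block with trend and robust fit). Chaperone genes at an unadjusted p under 0.05 numbered 2, or 7 with the replicate block, 9 and 7 with those combined settings, 6 with array weights, 6 with each gene's probe sets averaged, 5 without both replicate 3 arrays, 4 with quantile normalization, 1 with a trend and robust fit, 0 at the brightest probe set without an _x_at, _s_at or _a_at suffix, and 0 to 3 without single arrays. The cytosolic median was 0.007, or -0.018 with that choice of probe set and -0.039 to 0.045 without single arrays. The ER median was 0.019, or -0.015 with array weights, -0.031 with the mean of all probe sets and -0.012 to 0.085 without single arrays, and the mitochondrial median ran from -0.095 to 0.031 without single arrays. The sign of these medians is therefore not settled. The cause of these shifts was not tested. Of 436 values of the 26 named genes under alternatives 427 moved by less than the spread between replicates and 33 changed sign, in 13 genes. With 3 arrays per group, no chaperone gene passed after adjustment. In the main fit the unadjusted 95% intervals of Hsph1 (0.08 to 0.78) and Dnajc10 (-0.50 to -0.02) excluded 0. That fit sets each difference against the spread between arrays, and after adjustment the p by limma was 0.9999 for both genes.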

Other observations

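Dnajc19, a J-domain protein of the mitochondrial inner membrane, shares its 3 probe sets with a pseudogene in the annotation and was left out of the counts. These probe sets differed by 0.02 (SE 0.21), -0.10 (SE 0.09) and 0.26 (SE 0.16), mutant minus wild type. The last read 5.27, 5.40 and 5.82 in mutant arrays and 5.13, 5.34 and 5.26 in wild type arrays, with mutant replicate 3 the highest, as for Hspa5 and Hsp90b1.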
